A study of Mus musculus with 2 samples.

Results

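The genes described are 57 mouse genes for glutathione transferases and antioxidant enzymes, picked by name from the platform's gene symbols, out of 30698 genes that have a row of their own on the array. They comprise 22 transferases, 5 genes of glutathione synthesis and recycling, 19 peroxide, thioredoxin and superoxide enzymes, 9 quinone, carbonyl, epoxide and haem enzymes, and the transcription factor NRF2 (Nfe2l2) with its inhibitor Keap1. Corneal epithelium came from C57BL/6 mice of both sexes, 8 weeks old, under ketamine and xylazine anaesthesia. In the injured group the epithelium had been scraped off to its full depth with a rust ring remover, out to the limbal border. It was collected about 48 hours later, when 10% of the wound was still uncovered, and the uninjured group is the epithelium of the fellow eyes. There was 1 array in each group, and neither the number of mice behind an array nor any pooling is given in the sources used here.

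Glutathione is the main small thiol of the cell. Transferases join it to reactive electrophiles, peroxidases spend it to reduce peroxides, and glutathione reductase restores it with NADPH, while the thioredoxin system and peroxiredoxins do related work with protein thiols. Many of these genes are known targets of NRF2, which Keap1 marks for destruction until electrophiles or oxidants modify it. The corneal epithelium meets light and air directly and is known for abundant soluble enzymes of oxidant and aldehyde defence.

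Values are the authors' log2 intensities, and a difference is injured minus uninjured on the log2 scale, so 1 unit is 2-fold. A gene counted as measured when the brighter of its values reached 5.44, which is the median over the whole table. With 1 array per group there is no spread between samples, no test was made and no difference has a replicate check. The only error at hand is how far several rows of the same gene disagree, an SD of 0.242 in the difference over 542 rows of 256 genes. Each measured member had 1 row of its own, so this SD comes from other genes. In bulk RNA of this kind, fewer cells of a type and less RNA per cell cannot be told apart.

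Of the 57 members 50 were measured. Gstm6 lay below the low-signal level, Gstp2, Gclm and Prdx1 had only a row that also lists another gene, and Prdx5, Prdx6 and Akr1b3 are not analysed here because no row carries their name. Among the measured members 8 were at least 2-fold higher in the injured epithelium, against 4.14% of all 19512 measured genes, and 9 were at least 2-fold lower, against 3.92%. The 33 others were less than 2-fold apart, and 12 of the 50 differed by less than 0.242, as did 10420 of all 19512 measured genes. At 1.5-fold the counts were 10 higher (11.1% of all genes) and 14 lower (8.76%), and at 3-fold they were 2 higher (1.36%) and 2 lower (1.43%). The median difference of the members was -0.06, beside 0.06 for all measured genes, whose quartiles were -0.16 and 0.27.

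The role groups had medians on both sides of 0. Of 20 measured transferases 0 were at least 2-fold higher, 6 were at least 2-fold lower and 18 lay below 0, with a median of -0.54. The 4 measured genes of glutathione synthesis and recycling lay above 0, 2 of them by 2-fold or more, with a median of 0.93. One of these 2, Slc7a11, passed the low-signal filter through its injured value alone, and without it the median was 0.50. Of 16 peroxide, thioredoxin and superoxide enzymes 4 were at least 2-fold higher, 0 were lower by that much and 13 lay above 0, with a median of 0.34. Among those above 0, Gpx7 (5.75 injured, 5.41 uninjured) passed the low-signal filter through its injured value alone, and its difference of 0.34 lies at the median. The quinone, carbonyl, epoxide and haem enzymes went both ways, with 2 of 8 higher by 2-fold or more, 3 lower and a median of -0.42. For comparison, 58.4% of all measured genes lay above 0 and 40.8% below.

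**Figure D1:**
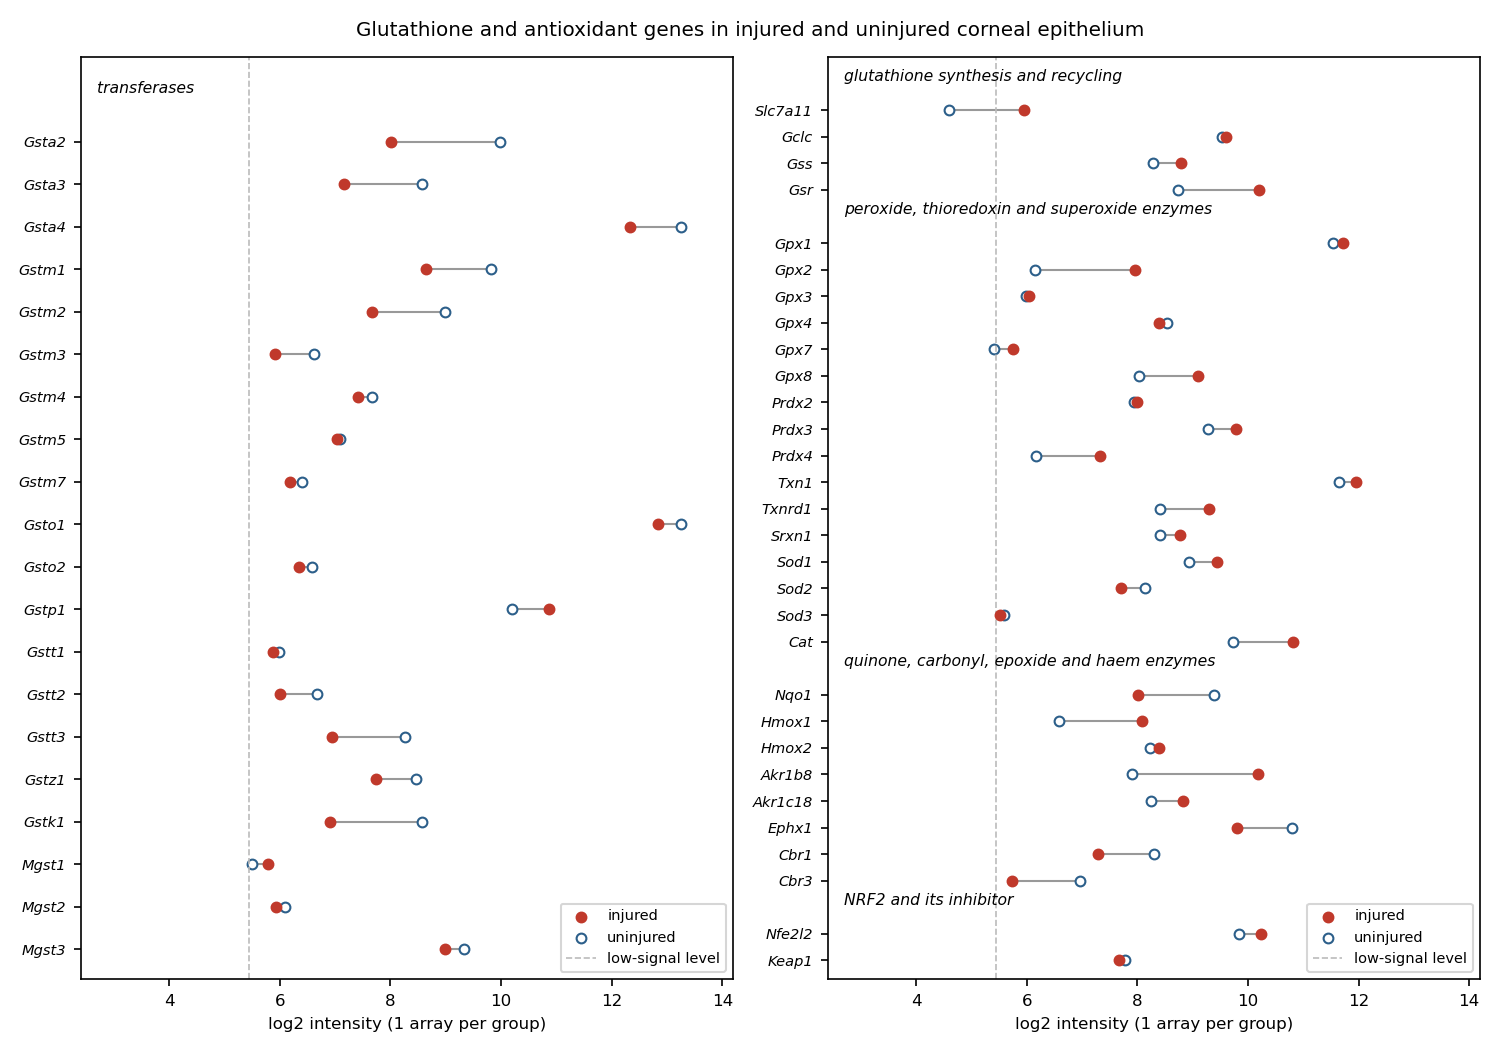
Log2 intensity of the 50 measured members in the injured (filled red) and the uninjured (open blue) array, 1 array per group, with a grey line joining the 2 values of a gene and a dashed line at the low-signal level of 5.44. In the left panel 18 of 20 transferases have the injured point on the left, and Gstp1 and Mgst1 are the exceptions, while in the right panel all 4 genes of synthesis and recycling have it on the right.

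The tissue label was checked against markers of the corneal epithelium. Krt12, the keratin of differentiated corneal epithelium, had 10.85 injured and 14.07 uninjured. Pax6, the eye's specifying transcription factor, had 9.31 and 10.63, and the corneal crystallin Aldh3a1 10.98 and 13.66, injured value first in both. Of 13 measured markers 6 were at least 2-fold lower in the injured array and 2 higher, with list means of 10.11 injured and 11.82 uninjured. The largest differences in the list, Lypd2 (-7.49) and Slurp1 (-6.61), weigh on these means, and its median difference was -0.80. The basal keratin Krt5 (13.69 injured, 13.85 uninjured) was not among the lower ones. The 2 higher were the basal keratin Krt14 (13.38 injured, 11.16 uninjured) and Epcam (1.43). Cdh1 (0.35) also lay above 0, as 3 of the 13 did in all. Conjunctival and goblet cell markers had list means of 8.68 injured and 8.40 uninjured, with 3 of 10 past 2-fold upward and 1 downward, and Krt13 at 11.77 injured and 12.06 uninjured. The 3 upward were the simple-epithelium keratins Krt7 (1.34), Krt8 (1.52) and Krt19 (1.11), and the 1 downward was Muc5ac (-1.26). Of the 10, 7 lay above 0, but Krt4 (0.14), Tff3 (0.15) and Spdef (0.07) did so by less than 0.242. Agr2 differed by 0.29 and Tff1 by -0.28. Macrophage markers had means of 7.04 injured and 6.64 uninjured over 11 of 14, with Adgre1, Mrc1 and Ccr2 below the low-signal level. Itgam had 8.72 injured and 10.26 uninjured, but 9 of the 11 lay above 0, beside 58.4% of all measured genes. Ly6c2 (2.75), Cd14 (0.94), Lyz2 (0.87) and C1qb (0.57) were higher by more than the row disagreement of 0.242. Cd68 (0.20), Csf1r (0.18), Cx3cr1 (0.19), C1qc (0.07) and Tyrobp (0.21) lay within it, and so did C1qa (-0.03). Neutrophil markers had means of 6.60 injured and 5.92 uninjured over 9 of 13, with S100a8, Ngp, Retnlg and Mmp8 below the low-signal level. Of those below it, S100a8 had 5.32 injured and 3.77 uninjured (1.55). Ltf, which epithelia also make, had 11.13 injured and 7.84 uninjured, and S100a9 was higher by 1.89. Csf3r (0.38) and Cxcr2 (0.29) differed less. Ly6g (0.14), Lcn2 (0.14), Mpo (0.04), Camp (0.01) and Elane (-0.06) lay within the row disagreement. Keratocyte markers had means of 6.48 injured and 6.60 uninjured over 8 of 12, with Kera, Lum and Ogn below the low-signal level. Col1a1 had 7.18 injured and 7.29 uninjured. Dcn had 4.77 injured, under the low-signal level, and 6.09 uninjured (-1.31). Lymphocyte markers had means of 5.98 injured and 5.81 uninjured over 4 of 11 (Nkg7 6.20 injured, 6.08 uninjured), and blood and endothelial markers 6.33 injured and 6.26 uninjured over 6 of 11 (Gp9 7.22 injured, 7.25 uninjured). Among measured markers, past 2-fold were 2 neutrophil markers upward, 1 macrophage marker each way, 1 keratocyte marker downward and 0 of the lymphocyte or the blood and endothelial markers. Apart from Krt13, Itgam, Ltf and those below the low-signal level, the conjunctival, macrophage and neutrophil markers given here were named after their values were seen. So were Lypd2, Slurp1, Epcam, Cdh1 and Dcn. The markers differ between the same 2 arrays as the members do, and their part in the members' differences was not tested.

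Alpha-class transferases conjugate products of lipid peroxidation and reduce organic hydroperoxides. All 3 measured alpha genes were lower in the injured epithelium, with a median of -1.42. Gsta2 had 8.01 in injured and 9.98 in uninjured epithelium, a difference of -1.98 or 3.93-fold lower. Only 0.789% of all measured genes had a smaller (more negative) difference than Gsta2. Gsta3, which in mice is known for detoxifying aflatoxin epoxide, had 7.15 in injured and 8.57 in uninjured epithelium (-1.42, 2.67-fold lower). Gsta4, the enzyme with a preference for the lipid aldehyde hydroxynonenal, had 12.33 in injured and 13.25 in uninjured epithelium (-0.92, 1.90-fold lower), just short of 2-fold. The top value of the whole table is 14.07 and no saturation call stands behind a value, so differences at levels such as those of Gsta4 can be understated.

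Mu-class transferases act on aromatic and other electrophiles. All 6 measured mu genes lay below 0, with a median of -0.49, and 2 of them passed 2-fold. Gstm2 had 7.66 in injured and 8.99 in uninjured epithelium (-1.32, 2.50-fold lower). Gstm1 had 8.65 in injured and 9.83 in uninjured epithelium (-1.18, 2.27-fold lower). Below these came Gstm3 with 5.91 injured and 6.63 uninjured (-0.71). The rest lay close to the 0.242 of row disagreement or inside it, namely Gstm4 (-0.26), Gstm7 (-0.23) and Gstm5 (-0.05). Gstm6, below the low-signal level in both arrays with 4.76 injured and 5.12 uninjured, differed by -0.36.

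The other cytosolic classes and the kappa class were mostly lower, with a median of -0.54 over 8 genes. Gstk1, the kappa transferase of mitochondria and peroxisomes, had 6.91 in injured and 8.57 in uninjured epithelium (-1.66, 3.16-fold lower). Gstt3, a theta-class gene, had 6.95 in injured and 8.25 in uninjured epithelium (-1.30, 2.47-fold lower). The other theta genes differed less, Gstt2 by -0.66 (6.00 injured, 6.66 uninjured) and Gstt1 by -0.10 (5.88 injured, 5.98 uninjured). Gstz1, the zeta enzyme that also serves tyrosine breakdown, differed by -0.72 (7.74 injured, 8.47 uninjured). The omega genes, whose products reduce dehydroascorbate, differed by -0.41 for Gsto1 (12.84 injured, 13.25 uninjured) and by -0.25 for Gsto2 (6.34 injured, 6.59 uninjured).

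Gstp1, the pi-class transferase of many epithelia, went the other way. It had 10.87 in injured and 10.19 in uninjured epithelium, a difference of 0.67 or 1.59-fold higher, and was the 1 transferase at least 1.5-fold higher, where 10 were at least 1.5-fold lower. Gstp2 was seen only on a row it shares with the pseudogene Gstp-ps, with 9.46 injured and 9.04 uninjured (0.42). The microsomal enzymes, membrane proteins of which some make cysteinyl leukotrienes, stayed within 1.5-fold: Mgst1 differed by 0.28 (5.78 injured, 5.50 uninjured), Mgst2 by -0.16 (5.93 injured, 6.09 uninjured) and Mgst3 by -0.34 (8.99 injured, 9.33 uninjured). Related genes within the mu, alpha and pi classes can share signal where their sequences are alike, so how much belongs to each is uncertain.

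**Figure D2:**
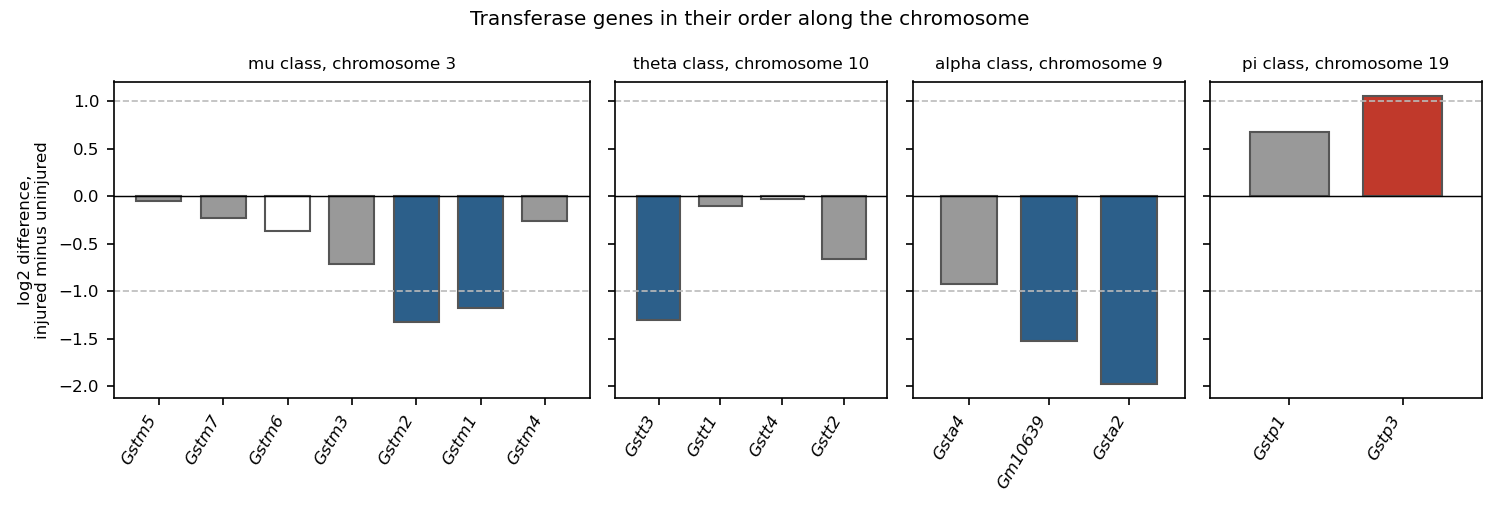
Log2 difference (injured minus uninjured, 1 array per group) of transferase genes in the order in which RefSeq places them, 1 panel for each of 4 clusters of neighbouring genes. The omega pair, Gsto1 and Gsto2, is not drawn. Blue bars are at least 2-fold lower, red bars at least 2-fold higher, grey bars less than 2-fold apart and white bars below the low-signal level, and dashed lines mark 2-fold. In the mu cluster the long bars of Gstm2 (-1.32) and Gstm1 (-1.18) stand side by side with shorter bars at both ends, and of the 4 panels only that of the pi cluster points up.

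Most transferase classes lie in clusters of neighbouring genes, and the differences were also read along the order given by RefSeq for GRCm38.p6. Genes between the members were named for their position, whatever their values. On chromosome 3 the mu genes ran Gstm5 (-0.05), Gstm7 (-0.23), Gstm6 (below the low-signal level), Gstm3 (-0.71), Gstm2 (-1.32), Gstm1 (-1.18) and Gstm4 (-0.26). The larger negative differences thus belonged to 3 adjoining members, Gstm3, Gstm2 and Gstm1, and the 2 measured pseudogenes in the cluster, Gm12497 (0.26) and Gm12502 (-0.16), did not share them. On chromosome 10 Gstt3 (-1.30) and Gstt2 (-0.66) enclosed Gstt1 (-0.10) and Gstt4, which lay below the low-signal level. On chromosome 9 the 1 measured gene between Gsta4 (-0.92) and Gsta2 (-1.98) was Gm10639, with 8.31 injured and 9.84 uninjured (-1.53). The row that lists Gsta1 with Gm3776 had 8.77 injured and 10.18 uninjured (-1.42). On chromosome 19 Gstp3, the neighbour of Gstp1 and Gstp2, had 6.27 injured and 5.21 uninjured (1.05), the uninjured value being under the low-signal level.

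Sequence just upstream of the members was examined for the letters that NRF2 and AP-1 are known to bind. RefSeq promoters of GRCm38.p6, 250 bases before to 50 after a start, covered 49 of the 57 members. The core of the antioxidant response element was searched on both strands as TGACNNNGC or TGAGNNNGC. It occurred in 15 of 49 members, against 30.8% of 27025 genes with such a promoter, so the members held it about as often as genes at large. By family it was found in 8 of 20 transferases, 2 of 3 genes of synthesis and recycling, 4 of 17 peroxide, thioredoxin and superoxide enzymes and 0 of 7 quinone, carbonyl, epoxide and haem enzymes. Of the 2 genes for NRF2 and its inhibitor 1 held it, Nfe2l2. Of members at least 2-fold higher 1 of 6 with a promoter held it, Slc7a11, and of those at least 2-fold lower 1 of 9, Gsta3. The AP-1 site TGANTCA occurred in 6 members, against 8.97% of all genes, and in Gstp1, Gstp2, Prdx1 and Srxn1 it overlapped the antioxidant core. A match is a description of letters, not evidence of binding, and no match says only that these letters are not in this window.

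The promoter of Gstp1 is shown whole because Gstp1 was the transferase that stood apart. It lies at chr19:4037863-4038162 on the minus strand and is written 5′ to 3′ along the gene, with the core that overlaps the AP-1 site in capitals, its first base 74 before the start (position -74).
Gstp1 promoter: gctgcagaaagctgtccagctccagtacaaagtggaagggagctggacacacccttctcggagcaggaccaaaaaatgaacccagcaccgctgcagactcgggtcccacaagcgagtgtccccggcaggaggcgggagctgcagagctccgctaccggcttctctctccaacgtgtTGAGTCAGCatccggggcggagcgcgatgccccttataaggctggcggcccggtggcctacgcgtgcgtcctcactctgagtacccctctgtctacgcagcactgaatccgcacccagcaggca

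Windows around 1 core in each of 7 members are set side by side, chosen after the values were seen to cover the pi genes, members of the thioredoxin system and the 2 members past 2-fold that held the core. Gstp1 holds a further core at -9, Prdx1 one at 16, and Srxn1 others at -158 and 29, which are not shown. Capitals mark the core as it reads on the gene's strand, so a match on the opposite strand begins with GC.
Gstp1: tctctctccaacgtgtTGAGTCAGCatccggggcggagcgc
Gstp2: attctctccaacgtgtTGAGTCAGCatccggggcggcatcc
Srxn1: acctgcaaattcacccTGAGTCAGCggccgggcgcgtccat
Prdx1: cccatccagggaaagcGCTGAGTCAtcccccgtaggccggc
Txnrd1: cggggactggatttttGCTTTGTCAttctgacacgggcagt
Slc7a11: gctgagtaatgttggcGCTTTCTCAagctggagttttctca
Gsta3: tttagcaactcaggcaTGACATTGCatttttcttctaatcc
The first base of the capitals stands at -74 in Gstp1, -89 in Gstp2, -45 in Srxn1, -133 in Prdx1, -92 in Txnrd1, -97 in Slc7a11 and -121 in Gsta3. The first 3 share the letters TGAGTCAGC, and Prdx1 has TGACTCAGC on its opposite strand. The promoters that hold the other windows lie at chr19:4042172-4042471 (minus strand) for Gstp2, chr2:152105274-152105573 (plus) for Srxn1, chr4:116685349-116685648 (plus) for Prdx1, chr10:82858956-82859255 (plus) for Txnrd1, chr3:50443564-50443863 (minus) for Slc7a11 and chr1:21240335-21240634 (plus) for Gsta3.

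The measured genes that make and restore glutathione all lay above 0, and 2 of 4 passed 2-fold. Gsr, glutathione reductase, had 10.20 in injured and 8.74 in uninjured epithelium (1.46, 2.75-fold higher). Slc7a11, the carrier that imports cystine for glutathione synthesis, had 5.95 in injured and 4.59 in uninjured epithelium (1.36, 2.56-fold higher). Its uninjured value was under the low-signal level, so the size of its difference is uncertain, and the gene drops out when the mean of both values must reach that level. The ligases differed less. Gss, glutathione synthetase, had 8.78 injured and 8.29 uninjured (0.50), whereas Gclc, the catalytic subunit of the rate-limiting ligase, had 9.60 injured and 9.53 uninjured (0.07), within the row disagreement. Gclm, the modifier subunit of that ligase, was seen only on a row shared with Gm6061, with 9.41 injured and 8.44 uninjured (0.97).

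Glutathione peroxidases were uneven, with a median of 0.26 over 6 genes. Gpx2, the peroxidase typical of epithelia, had 7.96 in injured and 6.15 in uninjured epithelium, a difference of 1.81 or 3.50-fold higher, and 99.0% of all measured genes had a smaller difference. Gpx8, a peroxidase of the endoplasmic reticulum, had 9.10 in injured and 8.02 in uninjured epithelium (1.08, 2.11-fold higher). The 4 others were less than 1.5-fold apart. They were the ubiquitous Gpx1 (11.71 injured, 11.54 uninjured, difference 0.18), the secreted Gpx3 (6.05 injured, 5.98 uninjured, 0.07), the membrane lipid peroxidase Gpx4 (8.38 injured, 8.53 uninjured, -0.15) and the endoplasmic reticulum enzyme Gpx7 (5.75 injured, 5.41 uninjured, 0.34), whose uninjured value was below the low-signal level.

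All 6 measured genes of the peroxiredoxin and thioredoxin system lay above 0, with a median of 0.43. Prdx4, the peroxiredoxin of the endoplasmic reticulum, had 7.32 in injured and 6.17 in uninjured epithelium (1.16, 2.23-fold higher) and was the 1 gene of the 6 past 2-fold. Txnrd1, the reductase that recharges cytosolic thioredoxin, had 9.30 in injured and 8.40 in uninjured epithelium (0.90, 1.86-fold higher). Smaller differences were seen for the mitochondrial Prdx3 (9.79 injured, 9.27 uninjured, difference 0.51), for Srxn1, which repairs overoxidised peroxiredoxins (8.76 injured, 8.42 uninjured, 0.35), and for thioredoxin itself, Txn1 (11.96 injured, 11.65 uninjured, 0.31). The cytosolic Prdx2 had 7.98 injured and 7.94 uninjured (0.04), and the row that lists Prdx1 with Gm21399 had 8.19 injured and 7.60 uninjured (0.58).

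Superoxide dismutases turn superoxide into hydrogen peroxide, which catalase breaks down in peroxisomes. Cat had 10.82 in injured and 9.73 in uninjured epithelium (1.09, 2.14-fold higher). None of the dismutases reached 1.5-fold, and their signs differed. The cytosolic Sod1 had 9.44 injured and 8.94 uninjured (0.50), the mitochondrial Sod2 had 7.70 injured and 8.14 uninjured (-0.44), and the extracellular Sod3 had 5.52 injured and 5.59 uninjured (-0.07).

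**Figure D3:**
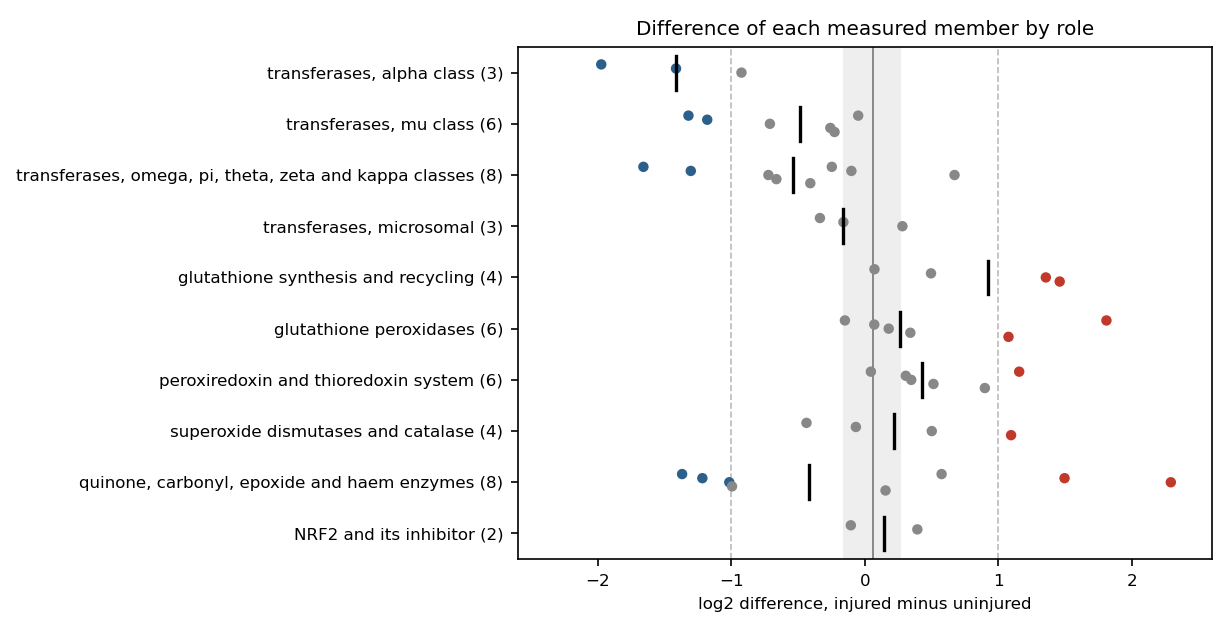
Log2 difference (injured minus uninjured, 1 array per group) of each measured member, 1 point per gene, grouped by role with the number of measured genes in brackets. Red and blue points are at least 2-fold higher and lower, short black bars are group medians, dashed lines mark 2-fold, and the grey line and band give the median (0.06) and quartiles of all 19512 measured genes. The alpha-class median lies at -1.42 and that of synthesis and recycling at 0.93, and the quinone, carbonyl, epoxide and haem enzymes hold points past 2-fold on both sides.

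Among the quinone, carbonyl, epoxide and haem enzymes stood the member with the largest difference of all 50. Akr1b8, an aldo-keto reductase of reactive aldehydes, had 10.19 in injured and 7.90 in uninjured epithelium, a difference of 2.29 or 4.90-fold higher, and 99.5% of all measured genes had a smaller difference. Hmox1, the inducible haem oxygenase, had 8.07 in injured and 6.58 in uninjured epithelium (1.495, 2.82-fold higher), whereas its constitutive relative Hmox2 had 8.39 injured and 8.23 uninjured (0.15). Akr1c18, a hydroxysteroid dehydrogenase that inactivates progesterone, had 8.82 injured and 8.25 uninjured (0.57).

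The 3 genes of this group at least 2-fold lower were reductases of quinones and carbonyls. Nqo1, the quinone reductase often used to read NRF2 activity, had 8.01 in injured and 9.38 in uninjured epithelium (-1.37, 2.58-fold lower). Cbr3, a carbonyl reductase, had 5.74 in injured and 6.96 in uninjured epithelium (-1.22, 2.33-fold lower). Its neighbour on chromosome 16, Cbr1, had 7.28 in injured and 8.30 in uninjured epithelium (-1.02, 2.02-fold lower), just past the threshold. Ephx1, the microsomal epoxide hydrolase, had 9.80 in injured and 10.80 in uninjured epithelium (1.99-fold lower), just short of it. Neighbouring genes could differ in sign here: on chromosome 6, in the cluster of Akr1b8, the gene Akr1b10 had 8.72 injured and 9.99 uninjured (-1.27).

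The transcription factor NRF2, Nfe2l2, had 10.23 in injured and 9.83 in uninjured epithelium (0.39, 1.31-fold higher), and Keap1 had 7.66 injured and 7.77 uninjured (-0.11). The RNA level of NRF2 does not report its activity, which is set mainly by protein turnover.

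The pathway around the members was described with 7 further lists. Their counts are to be read beside those of all measured genes, 4.14% at least 2-fold higher, 3.92% lower and 58.4% above 0. In the list of NRF2 partners and regulators 1 of 13 genes was at least 2-fold higher, the aryl hydrocarbon receptor Ahr (1.37), and 1 lower, the NRF2 relative Nfe2l3 (-1.58), with a median of -0.12. Among them the repressor Bach1 (-0.02) and the Keap1 partner Cul3 (0.18), named after their values were seen, differed by less than the row disagreement. Of 13 genes that supply NADPH, the reductant of Gsr and Txnrd1, 11 lay above 0, with a median of 0.39. The folate enzyme Mthfd2 (1.36) was at least 2-fold higher and the malic enzyme Me3 (-1.45) lower, and the row that lists the transketolase Tkt with a microRNA differed by -1.76. In the list of glutathione breakdown and export, 2 of 18 genes passed 2-fold upward and 0 downward, around a median of 0.25. These were Abcc1 (1.36), a pump for glutathione conjugates, and the glutamine carrier Slc1a5 (1.33).

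The list of other transferases and relatives reaches beyond conjugating enzymes, to chloride channel family proteins, the elongation factor Eef1g and the tRNA synthetases Mars1 and Vars. Among its 13 measured genes 3 passed 2-fold upward and 2 downward around a median of 0.62, which is the value of Eef1g. The higher ones were the prostaglandin synthase Ptges (1.68), Gstp3 and Gstcd (1.00), and the lower ones the chloride channel family members Clic3 (-1.53) and Clic5 (-1.40). Of 32 other thiol redox proteins 5 were at least 2-fold lower and 1 higher, with a median of 0.04. Lower were the plasma selenoprotein Selenop (-1.68, injured value below the low-signal level), the thioredoxin inhibitor Txnip (-1.62), Oxr1 (-1.55) and the sestrins Sesn3 (-1.41) and Sesn1 (-1.32), and higher was Sephs2 (1.35), which makes the selenium donor for selenoproteins such as Gpx2 and Txnrd1.

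The list nearest in function to Nqo1, Cbr1 and Cbr3 leaned lower. Of 25 other carbonyl, quinone and epoxide enzymes 7 were at least 2-fold lower and 1, the hydrolase Esd (1.44), which acts on a glutathione conjugate of formaldehyde, was higher, with a median of -0.36. The lowest were Ptgr1 (-2.72), a reductase of lipid enals, Ephx2 (-2.47), the soluble epoxide hydrolase, Akr1c13 (-2.26, with 5.24 in injured epithelium, under the low-signal level) and the carbonyl reductase Cbr2 (-2.12). The list of oxidases that make oxidants, their subunits and their maturation factors had 18 measured genes and a median of 0.19. Of these 1, the hydrogen peroxide source Duox1 (1.30), was at least 2-fold higher and 0 were lower. Among all measured genes 4.14% were higher and 3.92% lower by that much. Esd, Sephs2, Sesn1 and Gstcd were named to complete a count, after their values were seen.

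**Figure D4:**
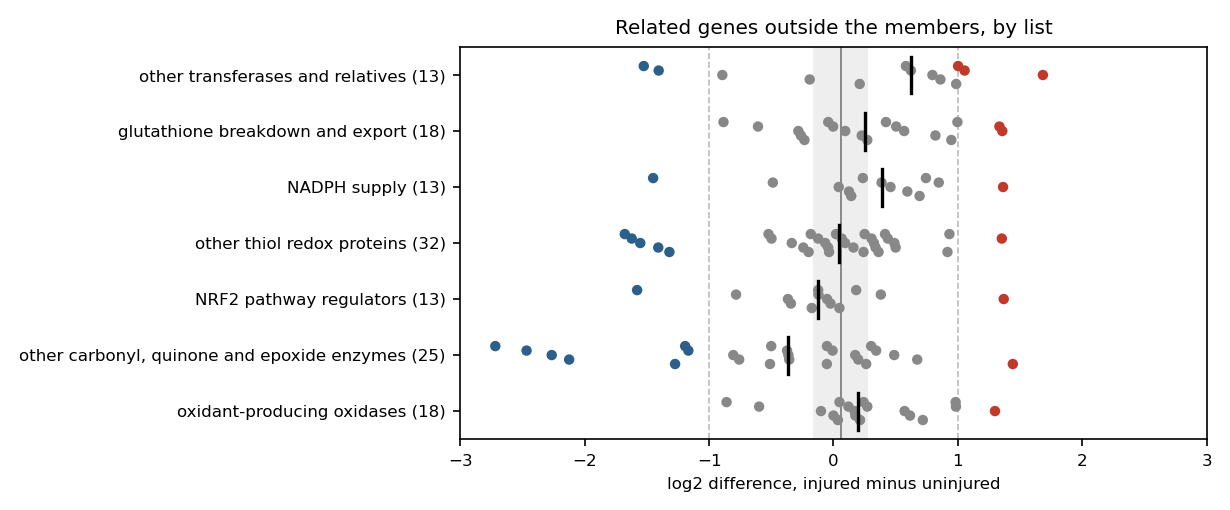
Log2 difference (injured minus uninjured, 1 array per group) of measured genes outside the members in 7 related lists, 1 point per gene, with the number of measured genes in brackets. Red and blue points are at least 2-fold higher and lower, short black bars are list medians, dashed lines mark 2-fold, and the grey line and band give the median (0.06) and quartiles of all measured genes. The list of other carbonyl, quinone and epoxide enzymes holds 7 blue points and has its median at -0.36. That of NADPH supply has 11 of 13 points above 0, beside 58.4% of all measured genes.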

How the data were processed

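RNA of injured and of uninjured corneal epithelium was labelled with biotin and hybridised to 1 array each, with 65952 rows. The authors' deposited values are log2 intensities, and the tool was Agilent Feature Extraction 9.1, per the submitters' processing notes. The biotin label and row identifiers shaped like transcript clusters are typical of another kind of array, so how the intensities were made is uncertain. The sources used here do not state background correction, probe summary, normalization or build. Medians of the arrays lay 0.0135 apart and 75th percentiles 0.00513 apart, under a limit of 0.1, and the log2 values were therefore kept as deposited.

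Rows were named from the platform annotation, with symbols updated through RefSeq GRCm38.p6. There were 31254 rows with 1 gene, 1492 with several, which gave no names, and 33206 that are unnamed here. A row was kept when its brighter value reached 5.44, the row with the highest mean stood for a gene, and 19512 genes were measured. The row of each of 54 members carries the number of the chromosome that RefSeq gives for the gene.

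A gene was counted at a difference of 2-fold, with 1.5-fold and 3-fold as alternatives. With 1 array per group no test was possible, and the number of arrays limits the precision. The members and lists were chosen with earlier results of these data known. All 57 members are named. Of each related list the genes past 2-fold are named, at most 4 by size, with exceptions stated where they occur. Other normalizations, filters, rows and the addition of 11.8 to the linear values before log2 were tried. Counting was checked on made-up values with known answers. Python 3.11.15, pandas 2.3.3, numpy 2.4.6 and statsmodels 0.14.6 were used.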

Additional observations from a re-analysis of the deposited data

Results flagged for a closer look

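Rows that also list a second gene were left out of every count, and for 3 members such a row was the only one. Each of these was higher in the injured array by more than the row disagreement of 0.242. The row of Gclm and Gm6061 differed by 0.97 (9.41 injured, 8.44 uninjured), that of Prdx1 and Gm21399 by 0.58 (8.19 injured, 7.60 uninjured), and that of Gstp2 and the pseudogene Gstp-ps by 0.42 (9.46 injured, 9.04 uninjured). Which of the listed genes gave the signal was not tested. Prdx2 also had a shared row beside its own, and the value of that shared row is not given here.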

How the results depend on the processing

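No paired analysis was possible because each group has 1 array, and for the same reason no replicate could be left out. None of the 50 measured members changed sign with a loess or quantile normalization. The addition of a constant to both arrays also altered values but cannot reverse a sign. Setting arrays to the same median or 75th percentile shifted every difference by 0.0135 or 0.00513. The smallest member difference was 0.04 (Prdx2), so these shifts could not change a sign either. All 17 members past 2-fold stayed past it with the loess. Averaging a gene's rows or taking its second row could change no member, since each had 1 row of its own, and a looser filter or the counting of shared rows, chosen after seeing the data, could only add members. Ephx1 joined the members past 2-fold after quantile normalization and with equal medians or 75th percentiles, and Cbr1 left them when the constant was added, which also brought Slc7a11 to 1.03. Slc7a11 left the measured genes when the brighter value had to reach the 75th percentile or the mean of both values the low-signal level, which left 39 and 49 of the 50 members, and the median of synthesis and recycling was then 0.50 in both cases. The 75th percentile filter moved the transferase median to -0.92 by leaving fewer genes. At 1.5-fold 14 members were lower, and at 3-fold 2 were higher and 2 lower. The medians ranged between -0.92 and -0.41 for transferases, 0.50 and 0.97 for synthesis and recycling, 0.32 and 0.50 for peroxide, thioredoxin and superoxide enzymes, and -0.43 and -0.41 for quinone, carbonyl, epoxide and haem enzymes. Signal over background was not given, and values near the low-signal level have uncertain differences.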
